A study of Mus musculus with 8 samples.

Results

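The targets of the transcription factor NRF2 that defend cells against oxidants were examined in cholesterol-loaded macrophages, to ask whether acetylated LDL (Ac-LDL) brings an oxidant response. The genes were *Nfe2l2*, which encodes NRF2 itself, and *Hmox1*, *Nqo1*, *Slc7a11*, *Gclc*, *Gclm*, *Gsr*, *Prdx1*, *Srxn1* and *Txnrd1*, 10 genes in all. They were chosen by name and by no rule on their values, though earlier results of these data were known. Every array probe that carried one of these symbols was taken. There were 18 such probes among the 45281 on the array. They covered 9 of the 10 genes, since no probe carried the symbol *Gsr*, which is not analysed here. The samples were thioglycollate-elicited peritoneal macrophages of C57/BL6 mice aged 8 weeks, measured on Illumina mouse bead arrays. Ac-LDL, a chemically modified LDL that macrophages take up through scavenger receptors, was given at 120 μg/ml for 24 h to 4 samples. The other 4 samples were mock-treated controls, and both groups were cultured as adherent cells in medium with L-929 conditioned medium. The labels call the samples biological replicates 1 to 4 of each group but do not say that each came from a separate mouse or culture, so p-values here measure the spread between these samples.

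NRF2 is held in the cytoplasm by KEAP1, which directs it to degradation. Oxidants and electrophiles modify cysteines of KEAP1, and NRF2 then accumulates, enters the nucleus and binds antioxidant response elements together with a small MAF protein. Its target genes supply glutathione, reduce peroxides through thioredoxin and peroxiredoxins, and break down haem and quinones. In macrophages the same programme is known to respond to oxidized lipids.

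The antioxidant response element was searched for in the proximal promoters as TGACNNNGC, on both strands, in RefSeq windows of the GRCm38.p6 assembly that run from 250 bases before to 50 bases after each transcript start. Of all 32851 windows of this length, 4071 (12.4%) held it. Windows were found for 7 of the genes, 9 windows in all, and 5 of the 9 held the letters. By gene, 5 of the 7 held them in at least 1 window, a share that was not counted over all genes. The 4 stretches upstream of a start are given here because they show where these letters lie in members whose mRNA was measured. Whether NRF2 binds there was not tested. They run 5′ to 3′ in the direction of transcription, with the match in capitals. The match reads forward in *Nfe2l2* and as its reverse complement in the others.
*Nfe2l2*, minus strand, chr2:75704875-75704913: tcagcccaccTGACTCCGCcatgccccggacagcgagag
*Gclm*, plus strand, chr3:122245403-122245451: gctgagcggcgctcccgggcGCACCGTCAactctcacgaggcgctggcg
*Prdx1*, plus strand, chr4:116685446-116685494: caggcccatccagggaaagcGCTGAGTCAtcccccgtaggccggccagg
*Txnrd1*, plus strand, chr10:82859094-82859142: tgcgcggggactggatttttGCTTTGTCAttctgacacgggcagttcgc
Counted from the transcript start, the match begins at base −240 in *Nfe2l2*, −134 in *Gclm*, −133 in *Prdx1* and −92 in *Txnrd1*. The *Srxn1* window held a match downstream of the start. The windows of *Slc7a11* and *Nqo1* and the other windows of *Txnrd1* did not hold these letters, which says nothing about elements further away. *Hmox1* and *Gclc* had no window.

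Of the 18 probes, 13 passed the filter for testing, which was detection (a detection p-value no higher than 0.05) on 4 or more of the 8 arrays, and 10 of them were detected on all 8. These 13 probes gave at least 1 tested probe for each of the 9 genes. The other 5 probes were a second probe of *Nfe2l2*, a second of *Nqo1* and 3 more of *Slc7a11*, and 4 of the 5 were detected on no array. The 2 *Nqo1* probes differ in this respect and are shown for that reason. The tested probe, ILMN_2726371, and the probe detected on no array, ILMN_2766386, read as follows.
ILMN_2726371: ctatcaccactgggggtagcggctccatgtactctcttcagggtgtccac
ILMN_2766386: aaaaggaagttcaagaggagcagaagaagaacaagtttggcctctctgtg
Each gene is described below by its brightest tested probe. Other tested probes are given for the NRF2 genes and for some genes of the wider lists. Levels are log2 intensities after background correction and quantile normalization, on which the lowest possible value is 4, and levels of different probes cannot be set against each other. Fold changes of dim probes are understated on this scale.

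Between 16679 and 17439 probes were detected per array, with a median of 43 to 44 beads behind each probe. Replicates 1 and 2 of both groups lay on one slide and replicates 3 and 4 on the other. Of 8 macrophage markers 7 were tested and none was called. Their summed intensity ran from 62500 to 85300 in control and from 64400 to 80800 in Ac-LDL arrays. Such sums are of background-corrected intensities, neither log-transformed nor normalized between arrays, so bright markers weigh most. The *Msr1* probe was detected on no array, which does not by itself show that the mRNA was absent. Of 5 B cell markers 1 was tested, and no T cell, mast cell, eosinophil or dendritic cell marker was. Of 6 fibroblast and mesothelium markers 5 were tested, with summed intensities of 12600 to 18000 in control and 12500 to 14000 in Ac-LDL arrays. Of 6 neutrophil markers 2 were tested, with sums of 500.0 to 715 and 629 to 716. None of these was called. The groups did not overlap for the neutrophil marker *S100a8* (log2 difference 0.24) and the fibroblast marker *Col1a2* (−0.23), as in 3.86% of all genes. They overlapped for the other tested markers of both lists. The part of other cells in the results below was not tested. In such bulk samples a change in the share of a cell type and a change of mRNA per cell cannot be told apart.

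None of the 9 NRF2 genes passed the threshold of an adjusted p under 0.05 in limma's test, where 0.0483% of all 12423 genes did. None reached an unadjusted p under 0.05 either, against 5.21% of all genes, and none did by the methods' t-test. The means of 5 genes were higher with Ac-LDL and those of 4 were lower, or 3 and 6 with median scaling, which moved the median of all probes to −0.09. The main split is close to all genes tested, of which 49.8% were higher. The median log2 fold change of the 9 genes was 0.06, over a range of −0.17 to 0.42, beside a median of −0.00059 over all genes. In every one of the 13 probes the control and Ac-LDL arrays overlapped, whereas the groups did not overlap in 3.8% of all probes and 3.86% of all genes. The 95% intervals of all 13 probes lay between a 0.549-fold and a 1.83-fold level with Ac-LDL, so none reached a 2-fold change on this scale. Fold changes of dim probes are understated on it. For probes near background, such as those of *Nqo1* and *Gclc*, this does not by itself leave out a 2-fold change of mRNA. The plot of levels by array shows this overlap gene by gene.

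**Figure D1:**
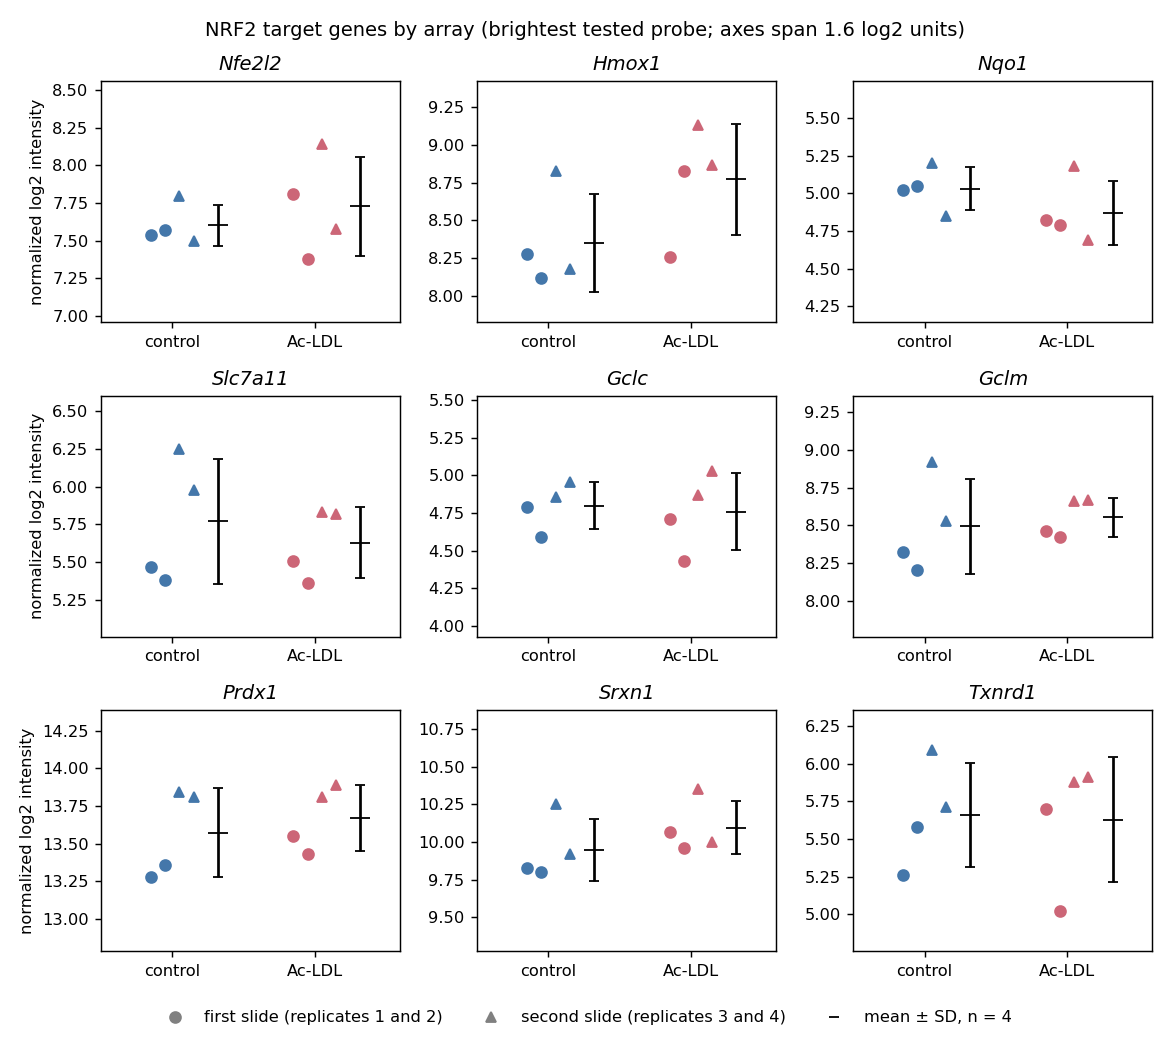
Log2 intensity of the brightest tested probe of each NRF2 gene on each of the 8 arrays, control and Ac-LDL side by side, with the group mean and SD (n = 4). Circles are replicates 1 and 2, on the first slide, and triangles replicates 3 and 4, on the second; every panel spans the same number of log2 units. The groups overlap in all 9 panels, and the *Hmox1* points are the ones with the widest gap between means, 8.35 in control and 8.77 with Ac-LDL.

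The regulator was present and differed little. *Nfe2l2* read 7.54, 7.57, 7.80 and 7.50 in control replicates 1 to 4 and 7.81, 7.38, 8.14 and 7.58 in Ac-LDL replicates 1 to 4. The highest and the lowest of the 8 values were both from Ac-LDL samples. The means were 7.60 ± 0.14 and 7.73 ± 0.32 (SD, n = 4), a log2 difference of 0.12 with a standard error of 0.16 and a 95% interval of −0.23 to 0.47 (adjusted p = 0.987). NRF2 is controlled mainly through the stability of its protein, which these arrays do not measure.

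*Hmox1*, haem oxygenase 1, which cleaves haem to biliverdin, iron and carbon monoxide, had the largest difference of the 9 genes. Control replicates 1 to 4 read 8.28, 8.12, 8.83 and 8.18, and Ac-LDL replicates 1 to 4 read 8.26, 8.83, 9.13 and 8.87. Of the Ac-LDL samples, replicates 3 and 4 lay above every control, replicate 2 was level with the highest control and replicate 1 lay among the low controls. The means were 8.35 ± 0.33 and 8.77 ± 0.37 (SD, n = 4), which is 1.34-fold higher with Ac-LDL (log2 difference 0.42, standard error 0.21, 95% interval −0.04 to 0.88, adjusted p = 0.949). The exact two-sided permutation test over the 8 arrays gave p = 0.143, where the smallest possible value is 0.0286. Within the 4 pairs of the same replicate number the differences were −0.02, 0.71, 0.30 and 0.69. Blocking on the replicate number in limma narrowed the interval to 0.13 to 0.71. *Hmox1* was then the only 1 of the NRF2 genes with an unadjusted p under 0.05, as were 13.9% of all genes in that fit. Its adjusted p was 0.224 there, the lowest over all settings tried, which ran up to 1.0. Without Ac-LDL replicate 1 the log2 difference was 0.59, and without control replicate 3 it was 0.58.

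*Nqo1*, the quinone reductase that is often used as a readout of NRF2, was barely above background and lay lower with Ac-LDL. Control replicates 1 to 4 read 5.02, 5.05, 5.20 and 4.85, and Ac-LDL replicates 1 to 4 read 4.82, 4.79, 5.18 and 4.69. The Ac-LDL value was the lower one in all 4 pairs, although the groups overlapped. The probe was detected on all 4 control arrays and on 2 of the 4 Ac-LDL arrays, with raw intensities of 49.2 to 64.4. The means of 5.03 ± 0.14 and 4.87 ± 0.21 (SD, n = 4) differed by −0.17 on the log2 scale (95% interval −0.45 to 0.11, adjusted p = 0.968). Among all genes 22.6% moved the same way in all 4 pairs, and among the NRF2 genes *Nqo1* and *Srxn1* did, in opposite directions.

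Glutathione synthesis begins with cystine uptake. *Slc7a11*, the cystine transporter subunit xCT, read 5.47, 5.38, 6.25 and 5.98 in control replicates 1 to 4 and 5.51, 5.36, 5.83 and 5.82 in Ac-LDL replicates 1 to 4. In both groups replicates 3 and 4, on the second slide, were the high ones. Its means were 5.77 ± 0.42 and 5.63 ± 0.23 (SD, n = 4), a log2 difference of −0.14 (95% interval −0.59 to 0.30, adjusted p = 0.989). A dimmer tested probe of the gene gave −0.09, with an interval of −0.87 to 0.68.

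The next step is catalysed by glutamate-cysteine ligase, whose catalytic subunit is *Gclc* and whose modifier subunit is *Gclm*. *Gclc* read 4.79, 4.59, 4.86 and 4.96 in control replicates 1 to 4 and 4.71, 4.43, 4.87 and 5.03 in Ac-LDL replicates 1 to 4. It was detected on 3 control and 2 Ac-LDL arrays, and its log2 difference of −0.04 had an interval of −0.35 to 0.27 (adjusted p = 0.994). *Gclm* read 8.32, 8.20, 8.92 and 8.53 in control and 8.46, 8.42, 8.66 and 8.67 in Ac-LDL replicates 1 to 4. All 4 Ac-LDL values of *Gclm* lay inside the range of the controls. Its means were 8.49 ± 0.32 and 8.55 ± 0.13 (SD, n = 4), a log2 difference of 0.06 with an interval of −0.28 to 0.40 (adjusted p = 0.994).

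The peroxide-reducing genes of the thioredoxin system gave bright signals in part. *Prdx1*, the cytosolic peroxiredoxin 1, reached raw intensities of 9360 to 16000. It read 13.28, 13.36, 13.84 and 13.81 in control and 13.55, 13.43, 13.81 and 13.89 in Ac-LDL replicates 1 to 4. The groups covered nearly the same range, and the means of 13.57 ± 0.30 and 13.67 ± 0.22 (SD, n = 4) differed by 0.10 on the log2 scale (95% interval −0.26 to 0.45, adjusted p = 0.99). A second, much dimmer *Prdx1* probe gave 0.05, with an interval of −0.72 to 0.81.

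*Srxn1* encodes sulfiredoxin, which restores peroxiredoxins that have been overoxidized. It read 9.83, 9.80, 10.25 and 9.92 in control replicates 1 to 4 and 10.07, 9.96 and 10.35 in Ac-LDL replicates 1 to 3, and Ac-LDL replicate 4 lay 0.08 above its control. The Ac-LDL sample was higher in the other pairs too, by 0.25, 0.16 and 0.10 in replicates 1 to 3, and *Srxn1* was the only 1 of the 9 genes higher in all 4 pairs, as 11.6% of all genes were. The means of 9.95 ± 0.21 and 10.10 ± 0.18 (SD, n = 4) gave a 1.11-fold level with Ac-LDL (log2 difference 0.15, standard error 0.13, 95% interval −0.14 to 0.44, adjusted p = 0.979). Its other 2 probes gave log2 differences of 0.16 and 0.11, with adjusted p of 0.986 and 0.989, and each was higher in 3 of the 4 pairs.

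*Txnrd1*, the cytosolic thioredoxin reductase, read 5.26, 5.58, 6.09 and 5.71 in control and 5.70, 5.02, 5.88 and 5.91 in Ac-LDL replicates 1 to 4. The pairs went both ways, with differences of 0.44, −0.56, −0.21 and 0.20. The mean log2 difference was −0.03 (95% interval −0.53 to 0.46, adjusted p = 0.998), the widest interval among the brightest probes of the 9 genes. The plot of intervals sets the 13 probes side by side.

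**Figure D2:**
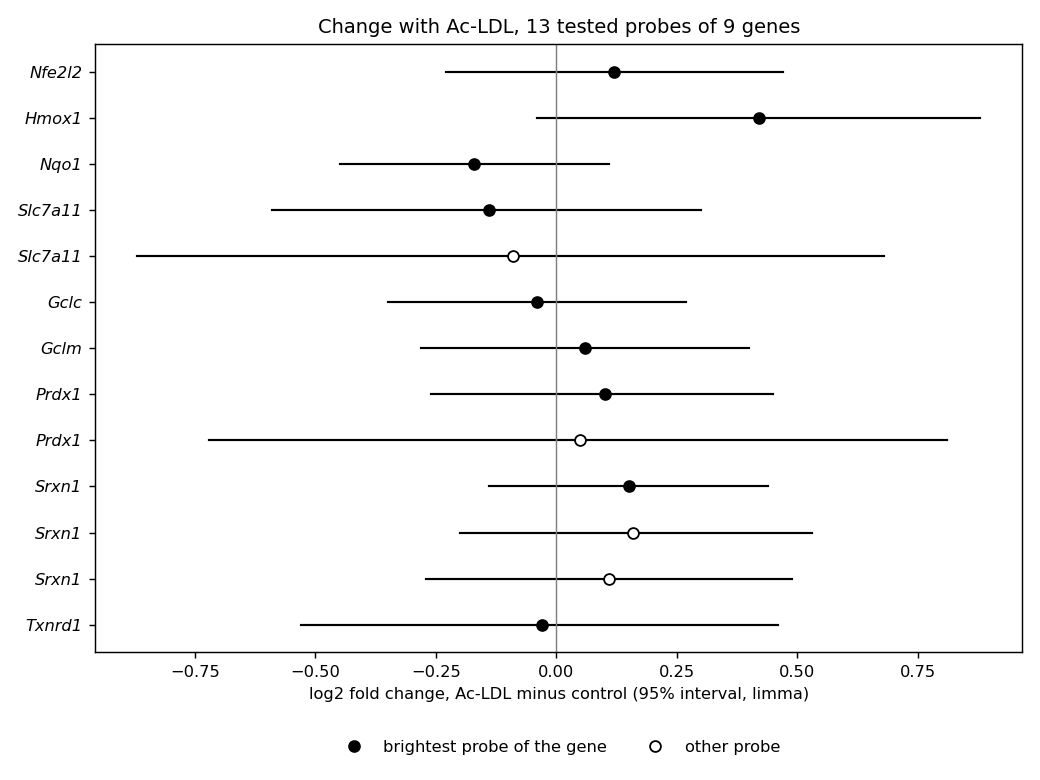
Log2 difference between Ac-LDL and control for each of the 13 tested probes of the NRF2 genes, with the 95% interval of the fit without a block (n = 4 per group). Filled points are the brightest probe of a gene and open points its other probes. Every interval includes 0, that of *Hmox1* by the smallest margin (−0.04 to 0.88).

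With the replicate number or the slide as a block, again none of the 9 NRF2 genes passed an adjusted p under 0.05, against 0.491% and 0.346% of all genes. After *Hmox1*, the lowest adjusted p under the replicate block was that of *Nqo1*, 0.411.

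The same genes differed more between the slides than between the groups. All 9 genes, and all 13 probes, were higher on the second slide, where 46.7% of all genes were. The median difference was 0.34 on the log2 scale for the 9 genes and −0.02 for all genes. In a fit with slide and group, a slide difference at an adjusted p under 0.05 was found for *Slc7a11* (0.54, adjusted p = 0.00468), *Prdx1* (0.43, adjusted p = 0.00468), *Txnrd1* (0.51, adjusted p = 0.0343), *Gclm* (0.34, adjusted p = 0.036) and *Gclc* (0.30, adjusted p = 0.0475). These 5 of 9 stand beside 24.3% of all genes, 11.8% being higher on the second slide, and in the same 5 the arrays of the slides did not overlap, as in 25.5% of all genes. *Hmox1* was higher by 0.38 (adjusted p = 0.112), *Srxn1* by 0.22, *Nfe2l2* by 0.18 and *Nqo1* by 0.06. In 7 of the 9 genes the slide difference was larger than the Ac-LDL difference, the exceptions being *Hmox1* and *Nqo1*. Without background correction and with median scaling 4 of the 9 were called, as *Gclc* had adjusted p of 0.0736 and 0.0656 there, against 27.1% and 19.5% of all genes. The slides were compared after the values had been seen. All 9 genes were also higher on the second slide without background correction (median 0.32, with 46.7% of all genes higher) and with median scaling in place of quantile normalization (median 0.39, with 56.6% higher). Each slide held 2 samples of each group, and slide and replicate numbers cannot be told apart, so that the samples themselves may differ.

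**Figure D3:**
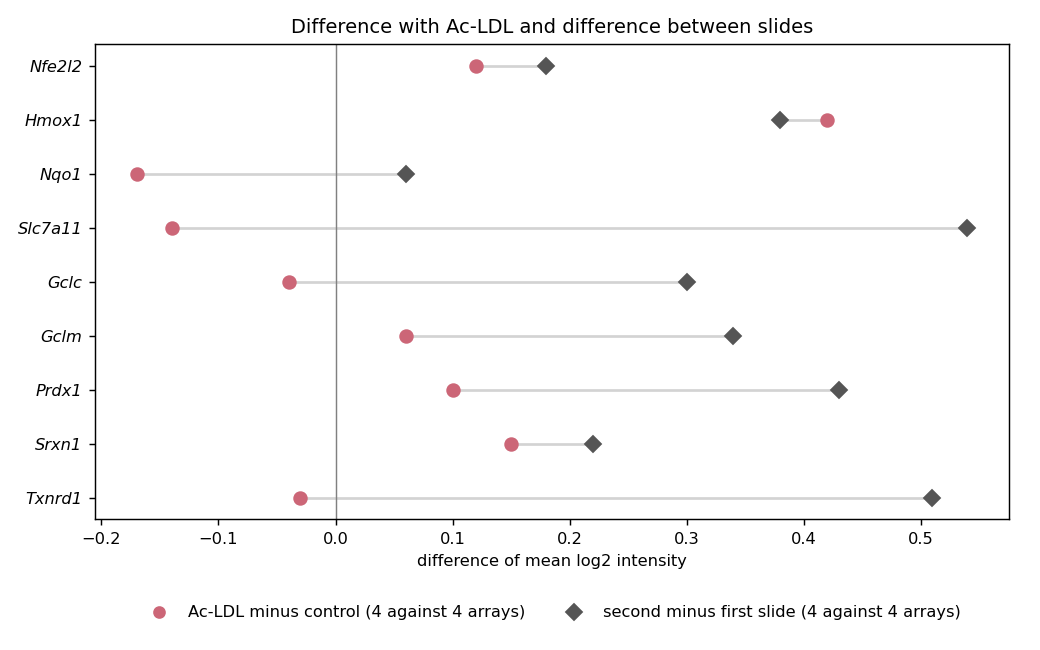
Difference of mean log2 intensity between Ac-LDL and control arrays (circles) and between the second and first slide (diamonds), 4 against 4 arrays each, for the brightest tested probe of each of the 9 NRF2 genes, joined by a line. All 9 diamonds lie above 0, from 0.06 for *Nqo1* to 0.54 for *Slc7a11*, while the circles lie on both sides of 0.

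The wider pathway was followed through 105 further genes in 9 lists, of which 88 had a tested probe. The lists were written with earlier results of these data known, so their shares beside those of all genes are description only. None of the 88 was called by limma's test without a block, nor by the methods' t-test after adjustment. An unadjusted p under 0.05 was reached by 13 (14.8%) in limma's test, against 5.21% of all genes, and by 15 in the methods' t-test, against 6.13%. With the replicate block 3 of the 88 (3.41%) were called, against 0.491% of all genes. With the slide as a random block, at an estimated correlation, none of the 88 was called, and the adjusted p of the 3 was 0.0975 (*Txnrd3*), 0.121 (*Abcc3*) and 0.294 (*Slc40a1*). The means of 47 genes were higher with Ac-LDL and those of 41 lower, with a median log2 fold change of 0.01. With median scaling the split was 26 and 62 and the median −0.08, and of the lists below the phagocyte oxidase and the ATF4 targets kept their split while the others had fewer higher genes. In 6 genes (6.82%) the groups did not overlap, against 3.86% of all genes, and in 1 of the 6 the Ac-LDL samples were the higher ones.

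Among the regulators and partners of NRF2, 3 of 12 tested genes were higher and 9 lower, with a median of −0.08 (0 and 12, median −0.18, with median scaling). The highest was *Btrc*, a subunit of a ubiquitin ligase that can act on NRF2, at 0.07 (adjusted p = 0.993), and *Keap1*, the repressor, also differed by 0.07. The lowest was *Sqstm1*, the autophagy receptor p62 that can displace NRF2 from KEAP1, at −0.38 (adjusted p = 0.968). Its differences were −0.90 and −0.86 in pairs 1 and 2 and 0.08 and 0.14 in pairs 3 and 4, so the pairs of one slide were lower and those of the other were not. Glutathione synthesis and use held 14 higher and 7 lower of 21 tested genes (7 and 14 with median scaling), from *Gsta4*, a glutathione transferase, at 0.30 (adjusted p = 0.882) to *Slc3a2*, the heavy chain that partners xCT, at −0.43 (adjusted p = 0.778). The groups did not overlap for *Slc3a2*, and its pairs differed by −0.85, −0.68, −0.19 and −0.02.

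The thioredoxin and peroxiredoxin list had 8 higher and 5 lower of 13 tested genes (3 and 10 with median scaling). *Txnrd3*, a reductase for thioredoxin and glutathione, was the lowest. Its control replicates 1 to 4 read 7.22, 7.13, 6.82 and 6.70 and its Ac-LDL replicates 1 to 4 read 6.72, 6.48, 6.27 and 6.34. The Ac-LDL sample was lower in each pair, while Ac-LDL replicate 1 lay just above the lowest control. The log2 difference of *Txnrd3* was −0.51, with a standard error of 0.14 (adjusted p = 0.645 without a block, 0.046 blocked by replicate, 0.0467 blocked by slide and 0.0975 with an estimated correlation). The highest of the list was *Sesn1*, a sestrin, at 0.23 (standard error 0.19), with 0.42 and 0.23 at its other probes. *Prdx3*, a peroxiredoxin, also rounded to 0.23 (standard error 0.09, adjusted p = 0.902). Its groups did not overlap, as in 3.86% of all genes, and it was higher in all 4 pairs, as 11.6% of all genes were. The NADPH-supplying genes had 4 higher and 1 lower of 5 (2 and 3 with median scaling), *G6pdx* of the pentose phosphate pathway at 0.21 and *Tkt*, transketolase, at −0.23 (adjusted p = 0.961 and 0.926). The other tested *Tkt* probe gave −0.52 (adjusted p = 0.763).

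Quinone, carbonyl and xenobiotic metabolism held 7 higher and 4 lower of 11 tested genes, with a median of 0.14 (6 and 5, median 0.01, with median scaling). The lowest was *Akr1b3*, aldose reductase, at −0.07, and *Abcc3*, an export pump for conjugated compounds, was the highest. *Abcc3* read 7.48, 7.53, 8.32 and 8.37 in control replicates 1 to 4 and 8.35, 8.37, 8.82 and 8.83 in Ac-LDL replicates 1 to 4. On each slide the Ac-LDL samples were higher, and the overlap came from the higher level of the second slide. The means of 7.92 ± 0.49 and 8.59 ± 0.27 (SD, n = 4) gave a 1.59-fold level (log2 difference 0.67, standard error 0.23, 95% interval 0.16 to 1.17). The adjusted p was 0.817 without a block, 0.0364 blocked by replicate, 0.0234 blocked by slide and 0.121 with an estimated correlation, and the exact two-sided permutation test gave p = 0.0571.

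Haem and iron handling had 6 higher and 1 lower of 7 tested genes, with a median of 0.15 (5 and 2, median 0.03, with median scaling). *Slc40a1*, the iron exporter ferroportin, read 6.60, 6.22, 7.58 and 6.95 in control replicates 1 to 4 and 7.73, 6.90, 8.09 and 7.73 in Ac-LDL replicates 1 to 4. Each Ac-LDL sample exceeded the control of its number, by 1.13, 0.68, 0.51 and 0.78, although the groups overlapped. The 1.71-fold higher mean (log2 difference 0.77, standard error 0.31) had an adjusted p of 0.887 without a block, 0.0263 blocked by replicate, 0.168 blocked by slide and 0.294 with an estimated correlation. The lowest was *Fth1*, the ferritin heavy chain, at −0.05, where its brightest probe read 15.11 on all 4 control arrays, tied at the top of the scale, and its other probe gave 0.08. Of the other antioxidant enzymes and metallothioneins 4 were higher and 2 lower (2 and 4 with median scaling). *Sod2*, the mitochondrial superoxide dismutase, was the lowest at −0.30 without overlap, and *Sod1*, its cytosolic counterpart, the highest at 0.14.

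The phagocyte NADPH oxidase, which makes superoxide, had 1 higher and 4 lower of 5 tested genes, from *Ncf1* at −0.23 to *Rac2* at 0.33 (adjusted p = 0.961 for *Rac2*). Both probes of *Cybb*, its catalytic subunit, were detected on no array, which again does not show that the mRNA was absent. The last list held ATF4, a stress factor that shares *Slc7a11* with NRF2, and 7 of its targets. In the main fit 8 of 8 tested genes had lower means with Ac-LDL, beside 49.8% of all genes with higher means. All 8 were also lower without background correction and with median scaling, which moved the median of all probes to −0.09. *Slc7a11* itself is counted with the NRF2 genes. The difference nearest 0 was that of *Psat1*, a serine synthesis enzyme, at −0.02. *Ddit3* differed by −0.72, with a standard error of 0.71. The Ac-LDL sample was higher in 2 of 4 pairs for *Psat1* and *Ddit3*, in 1 for *Atf4* and *Phgdh*, and in none for the other genes of the list. The median of the 8 was −0.37, and none was called. In limma's test 3 of the 8 had an unadjusted p under 0.05, against 5.21% of all genes. *Trib3*, a pseudokinase, was the lowest at −0.78 (standard error 0.36, adjusted p = 0.946), with pairs of −1.21, −1.23, −0.50 and −0.17, and its other tested probe gave −0.26 (standard error 0.27). *Atf4* itself differed by −0.44 (adjusted p = 0.808) and *Asns*, asparagine synthetase, by −0.44 without overlap (adjusted p = 0.713). *Atf4*, *Asns* and *Ddit3* each had another tested probe, whose values are not given here.

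**Figure D4:**
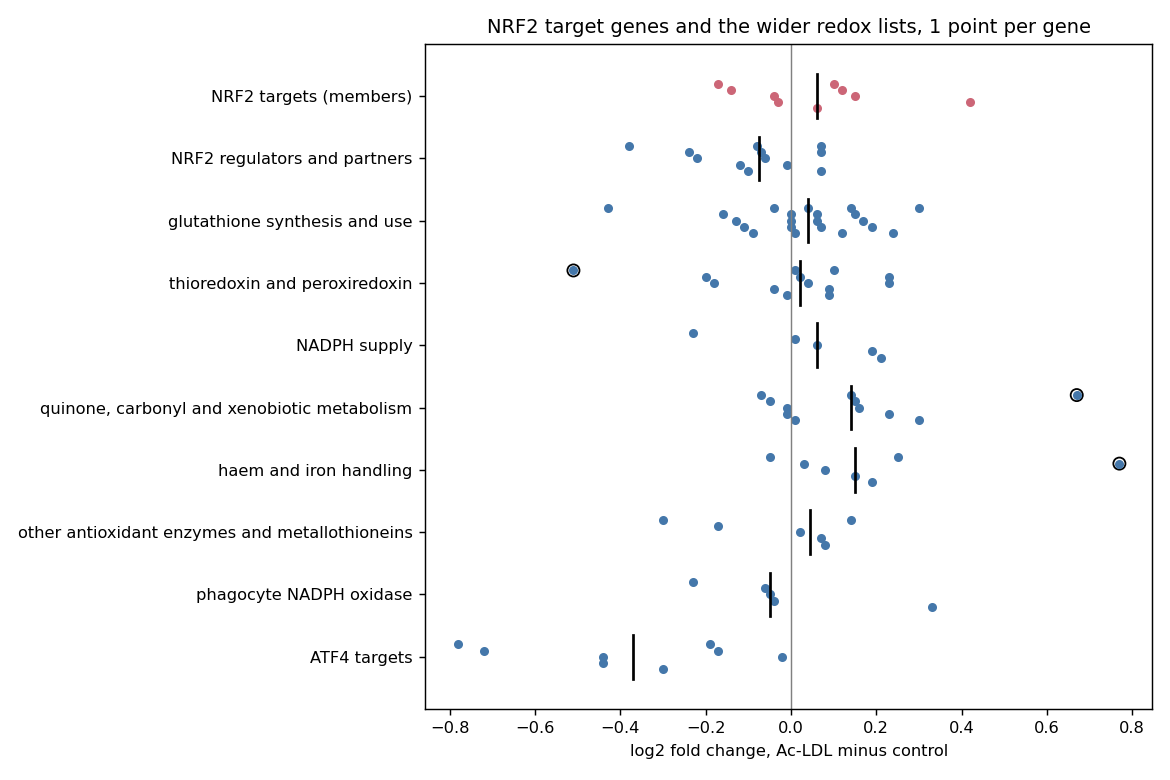
Log2 difference between Ac-LDL and control for the brightest tested probe of every gene of the NRF2 list and of the 9 wider lists, one row per list, with the list's median as a bar and a ring around genes called with the replicate block. The NRF2 genes centre on 0.06, *Slc40a1* and *Abcc3* lie furthest to the right at 0.77 and 0.67, and all 8 genes of the ATF4 list lie below 0.

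*Hmox1* varied across the 8 arrays most like *Aasdh* (Pearson's r = 0.984), *Cdca5* (0.97), *Onecut3* (0.938), *Man1c1* (0.937) and *St3gal5* (0.936), out of 12422 other genes. With the slide means removed these values were 0.979, 0.96, 0.925, 0.949 and 0.911. The closest other NRF2 genes were *Srxn1* (r = 0.751, rank 270) and *Gclm* (r = 0.682, rank 548), with 0.642 and 0.517 once slide means were removed, and over all 8 other NRF2 genes the latter values ran from −0.504 to 0.642. These correlations describe 8 arrays that share slides and treatment.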

How the data were processed

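RNA of the 8 samples was hybridised to Illumina mouse bead arrays. For each probe and array the authors deposited the mean bead intensity, with no background subtraction or normalization between arrays, the detection p-value as deposited against negative controls, the bead standard error and the number of beads. The authors normalized in GeneSpring GX, and those values were not used here. In R 4.3.3, limma 3.58.1 was applied to the intensities, with normexp background correction with negative controls inferred from the detection p-values (936 of them), an offset of 16, quantile normalization and log2 transformation. The 17122 probes tested, of 12423 gene symbols, had a detection p-value no higher than 0.05 on 4 or more of the 8 arrays. The comparison of 4 Ac-LDL with 4 control arrays used limma's moderated test, without a block because the methods name an unpaired test, and p-values were adjusted by the Benjamini-Hochberg method over all tested probes. Exact permutation tests used all 70 assignments. A gene with several probes was represented by its brightest tested probe. The depth of an array is its beads and signal over background, and the number of arrays limits the precision. The fit was tested on simulated data.

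The replicate numbers were checked for pairing. Deviations from the group means correlated between same-numbered samples with r of 0.579, 0.479, 0.468 and 0.629. Other numbers on the same slide gave 0.188 to 0.447, and samples across slides −0.546 to −0.318. Deviations from group means push values across slides below 0 wherever the slides differ, so those values do not bear on pairing. For control 3 the same-numbered value, 0.468, was close to the 0.447 of the other number on its slide. The numbers were taken to pair the samples in the replicate block, while the main fit and its intervals ignore them. Blocked values stand beside a result where they change its call.

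All NRF2 genes were to be named, and of each wider list the highest, the lowest and those called in a fit. Genes named beyond this, such as *Keap1*, *Atf4* and *Asns*, were chosen after their values were seen. The genes and lists were chosen with earlier results of these data known. Promoter sequences are from RefSeq on GRCm38.p6. Alternatives were other background corrections, scalings, filters, blocks, priors, the methods' t-test, single slides and leaving out samples.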

Additional observations from a re-analysis of the deposited data

Results flagged for a closer look

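Of 62 groups of 4 arrays checked for a sample far from the others, 1 was picked out, where chance gives 3.1. *Akr1b3*, an aldose reductase of the quinone, carbonyl and xenobiotic list, read 9.56 in Ac-LDL replicate 4, while the other Ac-LDL samples read 8.81 to 8.91. Controls 3 and 4, on the same slide as that sample, read 9.48 and 9.49 and controls 1 and 2 read 8.80 and 8.70, so its pair differed by 0.07, while Ac-LDL replicate 3, also on the second slide, differed from its control by −0.56. No group of a NRF2 gene was picked out.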

How the results depend on the processing

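None of the 9 NRF2 genes was called under any setting, leave-out fits included. The number of called probes over the whole array, 7, became 76 with the replicate block, 55 with the slide block, 41 with slide as a random block, 14 and 16 within the first and second slide, 26 with median scaling, 16 with a trended robust prior, and 0 both without the detection filter and with the methods' t-test (1039 at an unadjusted p under 0.05). It ran from 0 to 15 when samples were left out, 0 without Ac-LDL replicate 1 and 15 without control replicate 2. With median scaling, which moved the median of all probes to −0.09, 3 NRF2 genes were higher in place of 5 and their median was −0.06 in place of 0.06. Small differences turned direction for *Slc7a11* within the first slide (0.01), *Gclc* within the second slide (0.04), *Gclm* within the second slide (−0.06) and with median scaling (−0.06), and *Prdx1* with median scaling (−0.00). The replicate block turned the call of *Txnrd3*, *Abcc3* and *Slc40a1*, the slide block that of *Txnrd3* and *Abcc3*, so that 1 gene was called in each of their lists, and 1 gene of the ATF4 list was called within the first slide. With slide as a random block none of the 3 was called (adjusted p = 0.0975, 0.121 and 0.294). These causes were not tested. *Nqo1* and *Gclc* could not be tested where detection on all 8 arrays was asked. Leaving out samples gave 4 to 7 higher NRF2 genes, a median of −0.03 to 0.19, and log2 differences of 0.30 to 0.59 for *Hmox1*, −0.27 to −0.11 for *Nqo1*, −0.13 to 0.07 for *Gclc*, −0.03 to 0.20 for *Gclm*, −0.19 to 0.17 for *Txnrd1*, 0.06 to 0.25 for *Srxn1*, −0.27 to 0.02 for *Slc7a11*, −0.00 to 0.19 for *Prdx1* and −0.01 to 0.24 for *Nfe2l2*. Probes near background, *Nqo1* and *Gclc*, are limited by signal.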
